A study of Mus musculus with 13 samples.

Results

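The genes described here encode methyltransferases of the KMT2 and SETD1 family and proteins listed beside them: Kmt2a, Kmt2b, Kmt2c, Kmt2d, Kmt2e, Setd1a, Setd1b, Setd2, Kdm6a and Ncoa6. They were 10 of the 53392 genes in the count table, and all 10 were among the 14317 genes with enough counts to be tested. Kmt2c was selected on its measured values, because its counts were lower in ASAH- mice fed the Etoh-Dox diet than in ASAH+ mice fed the Etoh diet. The other 9 genes were listed by name, with earlier results of these data known. For these genes, values from that pair of groups are therefore given as a description, without a test.

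RNaseq was performed on whole liver of 13 female mice, aged 8 to 14 weeks, on a liquid diet with 28% of calories as ethanol, given over 4 weeks. TRE-ASAH1, a Dox-responsive transgene for an acid ceramidase, set ASAH+ apart from ASAH- mice. Its activator, rtTA, came from Rosa26-loxP-stop-loxP-rtTA after removal of the stop in hepatocytes by Albumin-Cre, and ASAH+ and ASAH- mice alike were homozygous for this pair of alleles. The groups were 4 ASAH- mice and 5 ASAH+ mice given Dox at 200 mg/l (Etoh-Dox), and 4 ASAH+ mice without Dox (Etoh). Comparing the first pair varies the transgene under Dox, whereas comparing the ASAH+ groups varies Dox together with transgene induction. Littermates were used, and the labels do not say which mice shared a litter.

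The titles of the ASAH+ samples name the opposite Dox treatment from their descriptions and induction labels, and the descriptions and induction labels were used. Asah1 was then examined as a check of this choice. Its level, in CPM (counts scaled to library size with TMM factors), was 40.04 to 54.99 in ASAH- Etoh-Dox mice, 9668 to 15935 in ASAH+ Etoh-Dox mice and 44.2 to 48.3 in ASAH+ Etoh mice. The tissue was checked too, and the summed CPM of 5 hepatocyte genes was at least 80706 in every mouse. At an unadjusted p under 0.05, 2 of these 5 genes were lower in ASAH+ Etoh-Dox than in ASAH- Etoh-Dox mice and 2, not the same pair, were lower than in ASAH+ Etoh mice. Of all 14317 genes tested, 225 and 464 were lower at that p in these comparisons, respectively. Between 17819486 and 35358711 counts were estimated over all genes per mouse. The lowest total belonged to ASAH+ Etoh replicate 4 and the highest to ASAH+ Etoh-Dox replicate 1.

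KMT2 and SETD1 enzymes add methyl groups to lysine 4 of histone H3, a mark of active promoters and enhancers, and each works inside a complex built on a shared core of WDR5, RBBP5, ASH2L and DPY30. KMT2C and KMT2D mainly mark enhancers and share the partners KDM6A, a demethylase that removes methyl groups from lysine 27 of histone H3, and NCOA6, a coactivator that binds nuclear receptors. In liver these complexes are known as partners of receptors that govern bile acid and lipid genes, such as FXR and LXR. The family name does not cover every gene equally. SETD2 methylates lysine 36 of histone H3 and belongs to none of these complexes, and KMT2E is a relative without established methyltransferase activity on lysine 4.

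Kmt2c (ENSMUSG00000038056) lies on the minus strand of chromosome 5 of GRCm38, from 25271798 to 25498783, and its longest protein-coding transcript has 14967 bases in 59 exons. Its relative Kmt2d (ENSMUSG00000048154) lies on the minus strand of chromosome 15, from 98831669 to 98871204, with 19823 bases in 55 exons. The promoter windows of this pair are shown because the enzymes are close relatives with shared partners. RefSeq windows on GRCm38.p6, which run from 250 bases before to 50 bases after a start site, were found for 7 of the 10 genes. They were not found for Kmt2b, Kmt2e and Setd1b. Capitals mark each CG, the base pair step that the CXXC domains of KMT2A, KMT2B and the SETD1 partner CXXC1 recognize when it is unmethylated. The letters CG read the same on both strands.
Kmt2c, chr5:25498734-25499033, minus strand: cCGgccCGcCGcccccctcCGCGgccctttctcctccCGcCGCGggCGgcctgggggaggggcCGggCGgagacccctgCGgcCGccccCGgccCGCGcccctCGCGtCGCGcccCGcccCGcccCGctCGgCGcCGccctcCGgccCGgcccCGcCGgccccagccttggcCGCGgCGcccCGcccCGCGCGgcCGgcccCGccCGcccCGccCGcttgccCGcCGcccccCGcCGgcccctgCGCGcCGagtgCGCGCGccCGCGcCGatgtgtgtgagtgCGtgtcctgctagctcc
Kmt2d, chr15:98871156-98871455, minus strand: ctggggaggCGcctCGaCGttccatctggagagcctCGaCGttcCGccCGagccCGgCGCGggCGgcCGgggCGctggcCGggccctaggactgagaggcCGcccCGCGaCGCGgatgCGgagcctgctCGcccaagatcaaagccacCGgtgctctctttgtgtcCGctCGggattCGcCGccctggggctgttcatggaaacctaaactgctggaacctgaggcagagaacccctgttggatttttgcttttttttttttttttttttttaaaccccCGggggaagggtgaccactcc
The Kmt2c window held 56 CG, a number reached by 0.195% of all 32851 windows, and the Kmt2d window held 27, reached by 15.5%. The windows of Setd2, Kmt2a, Setd1a and Kdm6a held 38, 36, 35 and 21 CG, respectively, against a median of 7 over all windows. The Ncoa6 window held 1 CG, but its start site lies 33111 bases inside the gene as annotated by GENCODE. The Setd1a start site likewise lies 719 bases inside the gene. These counts describe the windows and were not tested against the levels.

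Levels between genes were compared per kilobase of the longest protein-coding transcript. Setd2 was highest, at 5.53 ± 0.52 CPM per kilobase (SD, n = 13 mice), followed by Kmt2e at 5.08 ± 0.54 and Ncoa6 at 3.97 ± 0.46. Kdm6a followed at 3.60 ± 0.31 and Setd1a at 3.14 ± 0.50. The lower part of the order held Setd1b at 2.63 ± 0.43, Kmt2b at 2.57 ± 0.24, Kmt2c at 2.13 ± 0.34, Kmt2d at 1.67 ± 0.26 and Kmt2a at 1.23 ± 0.19. Of the 9 pairs of neighbours in this order, 7 changed places in at least 1 mouse. Setd1b exceeded Kmt2b in 8 of 13 mice and Setd2 exceeded Kmt2e in 10 of 13, whereas Kmt2c exceeded Kmt2d, and Kmt2d exceeded Kmt2a, in 13 of 13. The order depends on the transcript chosen. With the median length of the protein-coding transcripts, Setd1a came first at 22.2 CPM per kilobase and Kmt2a stayed last at 1.95.

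Every gene had at least 388 counts in every mouse. Setd1a is the least certain count, since 51.8% of the 31-base words in its transcripts also occur in other genes. They occur mainly in Gm49388, which covers 14515 bases of the same strand and had 1.34 CPM, against 20.4 CPM for Setd1a. For the other 9 genes this share was at most 2.41%, the value for Kmt2d, and it was 0.0978% for Kmt2c. On the opposite strand, the whole Setd1b span of 26437 bases is shared with Gm26745, a noncoding gene at 0.457 CPM. Kmt2c shares 4020 bases with Gm42585, Kmt2a shares 3406 with an antisense gene, neither of them tested, and Kmt2e shares 972 with Srpk2, at 17.5 CPM. The other overlaps of the 10 genes on the opposite strand were of 604 bases or fewer. The libraries were stranded, but whether the counting used strand is not given in the sources used here.

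Kmt2c encodes a large enzyme that marks enhancers. Its level was 30.8, 25.5, 24.9 and 27.2 CPM in the 4 ASAH- Etoh-Dox mice. It was 30.9, 27.9, 29.5, 32.7 and 31.6 CPM in the 5 ASAH+ Etoh-Dox mice, and 39.4, 39.2, 35.6 and 39.1 CPM in the 4 ASAH+ Etoh mice. The mice without Dox were all above every mouse with Dox, and the Dox groups overlapped. In the selecting comparison, the level of Kmt2c in ASAH- Etoh-Dox mice was 0.707 times that in ASAH+ Etoh mice, a log2 fold change of -0.50 ± 0.08 (SE). Each of the other comparisons shares a group with it, so mice that selected Kmt2c enter both. The directions and sizes of the Kmt2c differences there were favoured by the selection. The p values and intervals of Kmt2c there are not independent of the selection.

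Between the ASAH+ groups, Kmt2c was lower with Dox in 20 of 20 pairs of mice, with a log2 fold change of -0.33 ± 0.08 (SE), or 0.796 times the level without Dox (95% interval 0.705 to 0.899). This difference did not pass the threshold of 0.1 after adjustment over all genes (edgeR, adjusted p = 0.43). DESeq2 fitted on the ASAH+ groups alone gave an adjusted p = 0.021 for Kmt2c, and over all alternatives that gave one the adjusted p ranged from 0.021 to 0.86. Between the Etoh-Dox groups, Kmt2c was higher in ASAH+ mice by a log2 fold change of 0.17 ± 0.08 (SE), and 2 of 20 pairs went the other way. The adjusted p was 1.00 with edgeR.

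**Figure D1:**
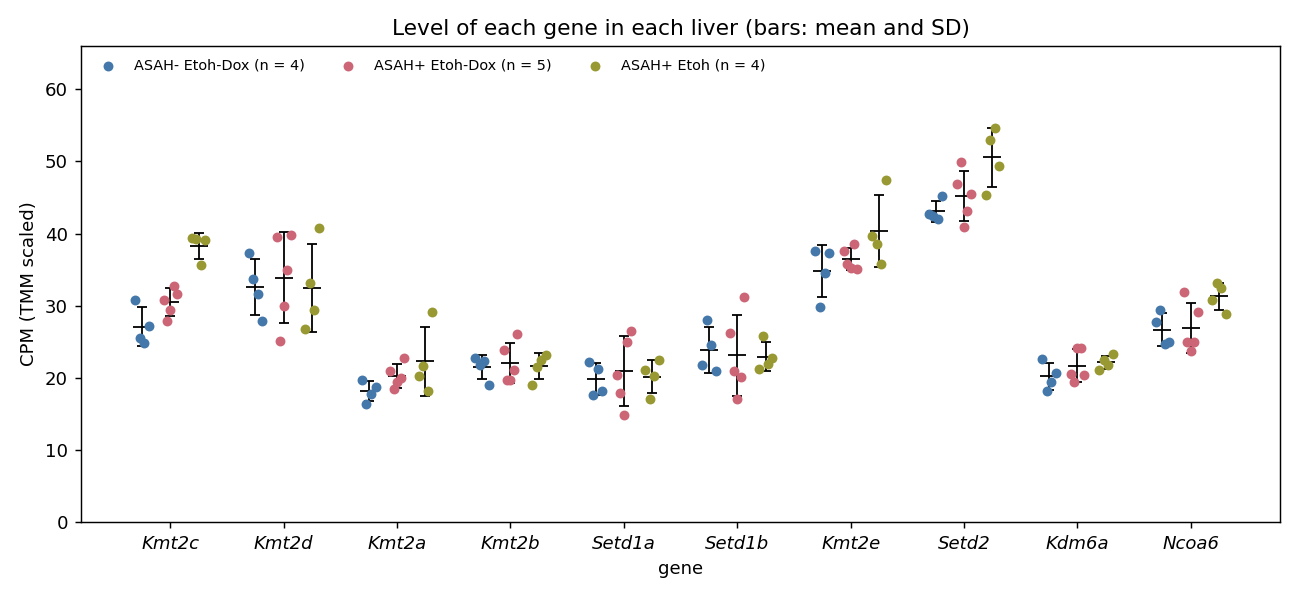
Level of each gene in CPM (vertical axis) in each of 13 livers, by group, with the mean and SD of each group as bars. For Kmt2c the 4 ASAH+ Etoh mice lie at 35.6 to 39.4 CPM, above all 9 Etoh-Dox mice, whereas the groups overlap for Kmt2d.

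Kmt2d, the closest relative of Kmt2c, had 37.3, 33.7, 31.7 and 27.9 CPM in ASAH- Etoh-Dox mice. It had 39.5, 25.1, 30.01, 35.02 and 39.7 CPM in ASAH+ Etoh-Dox mice, and 26.7, 33.1, 29.4 and 40.8 CPM in ASAH+ Etoh mice. The highest and the lowest mice belonged to the ASAH+ groups, and all 3 groups overlapped. Its log2 fold changes were 0.06 ± 0.15 (SE) for ASAH+ against ASAH- mice on Etoh-Dox and 0.06 ± 0.15 (SE) for Etoh-Dox against Etoh in ASAH+ mice. The log2 ratio of Kmt2c to Kmt2d within a mouse, each in CPM, averaged -0.26 ± 0.16 (SD, n = 4) in ASAH- Etoh-Dox mice, -0.13 ± 0.21 (n = 5) in ASAH+ Etoh-Dox mice and 0.26 ± 0.25 (n = 4) in ASAH+ Etoh mice. This ratio contains the selected gene and was not tested.

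Kmt2a and Kmt2b encode the enzymes that work with menin. Kmt2a was at 19.8, 16.4, 17.8 and 18.7 CPM in ASAH- Etoh-Dox mice and at 21.02, 18.4, 19.4, 19.98 and 22.8 CPM in ASAH+ Etoh-Dox mice. In ASAH+ Etoh mice it was at 20.2, 21.6, 18.2 and 29.1 CPM. The last value, from replicate 4, was the highest of all 13 and set much of the group mean. The log2 fold change of Kmt2a between the ASAH+ groups was -0.13 ± 0.12 (SE) with this mouse and 0.01 without it. Against ASAH- mice on Etoh-Dox it was 0.16 ± 0.12 (SE). Kmt2b ranged from 19.02 to 26.03 CPM over the 13 mice, and its log2 fold changes were 0.04 ± 0.10 and 0.03 ± 0.10 (SE) in the same order as given for Kmt2d.

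Setd1a and Setd1b encode the enzymes that supply most promoter methylation of lysine 4. They varied most of the 10 genes among ASAH+ Etoh-Dox mice, but not in the other ASAH+ group, where Kmt2a and Kmt2d did. Setd1a ranged in ASAH+ Etoh-Dox mice from 14.8 CPM in replicate 3 to 26.5 CPM in replicate 5, and Setd1b from 17.03 CPM to 31.3 CPM in the same mice. Their coefficients of variation in this group were 23.2% and 24.4%, against 6.19% for Kmt2c. All groups overlapped for both genes. The log2 fold changes between the ASAH+ groups were 0.05 ± 0.15 (SE) for Setd1a and 0.01 ± 0.15 (SE) for Setd1b.

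Setd2, the methyltransferase of lysine 36, was at 42.7, 42.4, 41.99 and 45.2 CPM in ASAH- Etoh-Dox mice and at 46.8, 49.9, 40.9, 43.1 and 45.5 CPM in ASAH+ Etoh-Dox mice. It was at 45.3, 52.98, 54.6 and 49.4 CPM in ASAH+ Etoh mice. The ASAH- mice lay below every ASAH+ Etoh mouse, with 45.2 against 45.3 CPM at the closest pair, and the ASAH+ Etoh-Dox mice overlapped with both. Its log2 fold change between the ASAH+ groups was -0.16 ± 0.08 (SE), with an adjusted p = 0.69 by edgeR, and Setd2 was lower with Dox in 16 of 20 pairs of mice. Kmt2e, the relative without established activity on lysine 4, had 29.8 to 37.5 CPM in ASAH- Etoh-Dox mice, 35.1 to 38.6 CPM in ASAH+ Etoh-Dox mice and 35.7 to 47.5 CPM in ASAH+ Etoh mice. Its highest value again came from ASAH+ Etoh replicate 4. The log2 fold change of Kmt2e between the ASAH+ groups was -0.15 ± 0.09 (SE).

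Ncoa6 and Kdm6a encode partners of KMT2C and KMT2D. Ncoa6, the coactivator, had 27.8, 29.4, 24.6 and 24.9 CPM in ASAH- Etoh-Dox mice, 31.97, 25.0003, 23.7, 24.9 and 29.1 CPM in ASAH+ Etoh-Dox mice, and 30.8, 33.1, 32.5 and 28.9 CPM in ASAH+ Etoh mice. It was lower with Dox in 17 of 20 pairs of ASAH+ mice, and the groups overlapped. The log2 fold change was -0.22 ± 0.10 (SE), with an adjusted p = 0.66 by edgeR and an exact permutation p = 0.071. Kdm6a, the demethylase, ranged from 18.1 to 24.1 CPM over all 13 mice, and its log2 fold changes were 0.10 ± 0.09 and -0.03 ± 0.09 (SE) for ASAH+ against ASAH- mice and for Etoh-Dox against Etoh, respectively.

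**Figure D2:**
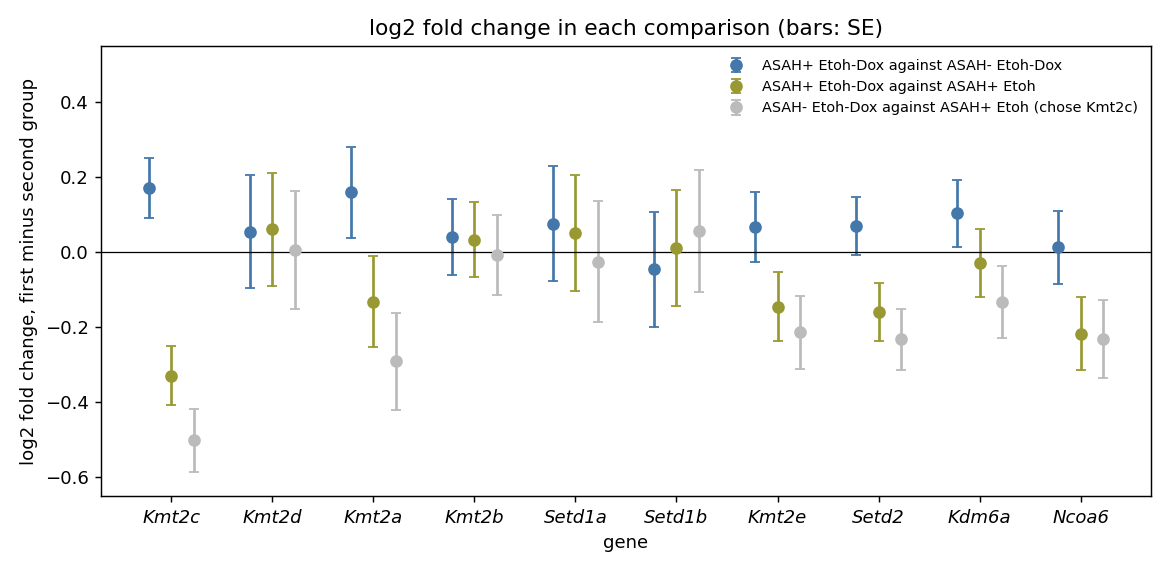
log2 fold change of each gene (vertical axis, first minus second group) in the 3 comparisons, with SE bars. Kmt2c is lowest in both comparisons with ASAH+ Etoh mice, at -0.33 and -0.50, and the second of these is the comparison that selected it.

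In ASAH+ against ASAH- mice on Etoh-Dox, 0 of the 10 genes passed the adjusted threshold of edgeR, against 0.014% of all genes tested. At an unadjusted p under 0.05 there was 1 of 10, Kmt2c, against 2.86% of all genes. This count rests on a p of 0.0492 by edgeR, and the exact permutation p of Kmt2c was 0.063. It fell to 0 in 5 of 12 alternatives and without any 1 of 9 mice: ASAH- Etoh-Dox replicates 2, 3 and 4, ASAH+ Etoh-Dox replicates 1, 4 and 5, and ASAH+ Etoh replicates 1, 2 and 4. In ASAH+ mice on Etoh-Dox against Etoh, again 0 of 10 passed, against 0.014% of all genes. At an unadjusted p under 0.05 there were 2 of 10, Kmt2c and Ncoa6, against 7.29% of all genes in either direction. Both were lower with Dox, as were 3.24% of all genes at that p. The count was 1 to 3 over the alternatives and with a mouse left out, and 1 without ASAH+ Etoh-Dox replicate 3 or 4 or ASAH+ Etoh replicate 2. Of the other tools, limma-voom called 0 of the 10 genes in each comparison. DESeq2 on all 13 mice called 0 between the Etoh-Dox groups, and between the ASAH+ groups its filter on mean counts left all 10 genes without an adjusted p, with 3 of them at an unadjusted p under 0.05. DESeq2 on the ASAH+ groups alone called 1, Kmt2c, against 0.839% of the 13584 genes to which it gave an adjusted p, or 114 genes. Counts of 1 or 2 genes are too small to read against these shares, and Kmt2c, which is in each of them, was selected on mice of these comparisons.

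The groups did not overlap for 1 of 10 genes, Kmt2c, when ASAH+ Etoh-Dox mice were lower than ASAH+ Etoh mice, against 1.49% of all genes tested. In ASAH- Etoh-Dox against ASAH+ Etoh mice, the comparison that selected Kmt2c, it was 2 of 10, Kmt2c and Setd2, against 2.4% of all genes. This number was 2 to 4 with a mouse left out, and 4 without ASAH+ Etoh replicate 3. In that comparison the log2 fold change was negative for 8 of the 10 genes, with a median of -0.17, whereas it was negative for 46.8% of all genes, with a median of 0.02. The number of negative values was 6 to 9 over 12 alternatives, and 6 to 9 with a mouse left out. It was 6 with the offset for transcript length, where Kmt2b was at 0.09, Kmt2d at 0.19, Setd1a at 0.04 and Setd1b at 0.17, and 9 with DESeq2 on all 13 mice. The 1 of 10 between the ASAH+ groups was Kmt2c itself, selected in part on the same ASAH+ Etoh mice. Nothing is read from that count, or from those of ASAH- Etoh-Dox against ASAH+ Etoh mice, the comparison that selected Kmt2c. The median of the 1432 genes with the longest transcripts, 8 of the 10 among them, was -0.10 there. The median of the 10 genes was -0.08 for Etoh-Dox against Etoh in ASAH+ mice and 0.07 for ASAH+ against ASAH- mice on Etoh-Dox. The medians of all genes were 0.01 and -0.002, respectively.

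The number of the 10 genes above their own median was also counted in each mouse. Of all genes tested, 43.6 to 48.6% lay above their own median in a mouse. In ASAH+ Etoh replicate 4, 9 of the 10 lay above their own median of 13 mice and 0 below, and in ASAH- Etoh-Dox replicate 4, 0 lay above and 9 below. Mice of 1 group also differed. Of the ASAH+ Etoh-Dox mice, replicate 5 had 8 genes above their median, and replicates 2 and 3 had 1 each. The summed level of the 10 genes ran from 254 CPM in ASAH+ Etoh-Dox replicate 3 to 326 CPM in ASAH+ Etoh replicate 4, the library with the fewest reads.

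**Figure D3:**
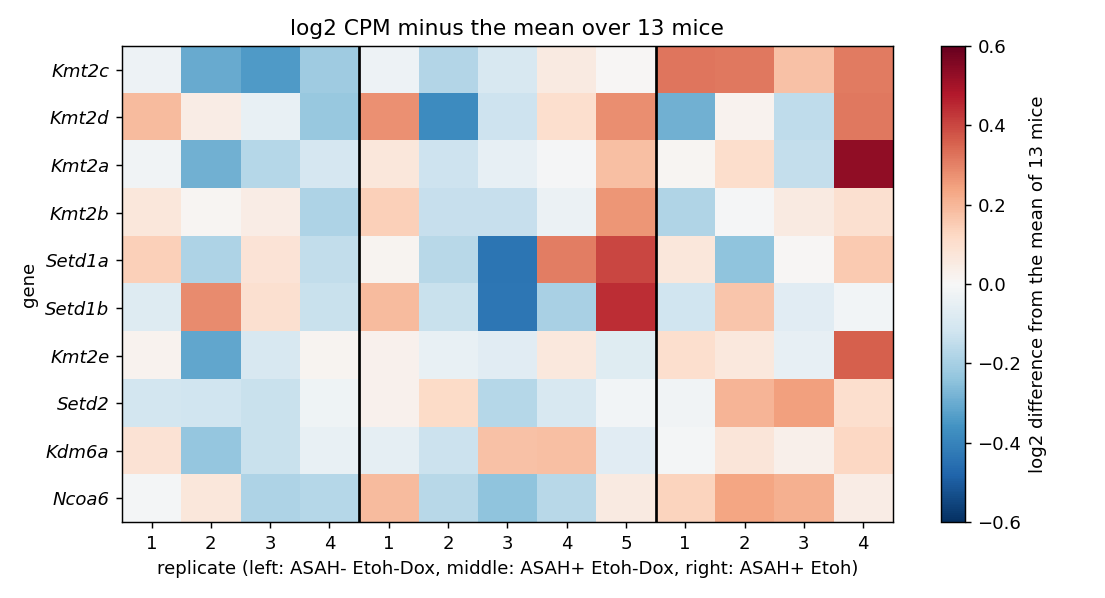
log2 CPM of each gene minus its mean over 13 mice (colour), with genes in rows and mice in columns by group and replicate. Kmt2c separates the right block from the others, and ASAH+ Etoh replicate 4 is above the mean for most genes, most of all for Kmt2a.

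Likeness to Kmt2c was measured by Pearson's r of log2 CPM over the 13 mice, which share the group structure that selected Kmt2c. It is a description without a test. Among the other 9 genes, r was 0.72 for Kmt2e, 0.66 for Kmt2a, 0.62 for Ncoa6, 0.59 for Kdm6a and 0.58 for Setd2. It was 0.22 for Setd1a, 0.17 for Kmt2d, 0.08 for Kmt2b and -0.06 for Setd1b. The close relative Kmt2d was thus among the least like Kmt2c of these 9 genes, with a Spearman's rho of 0.16. Kmt2e ranked 194 and Kmt2d ranked 3601 among 11111 genes with a mean log2 CPM above 1.

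The 5 genes most like Kmt2c were Btbd7, Gm44250, Miga1, Xiap and Usp9x, with r of 0.93, 0.92, 0.91, 0.90 and 0.90. Xiap encodes an inhibitor of caspases, Usp9x a deubiquitinase and Miga1 a protein of mitochondrial fusion. Usp9x had 122 ± 9.7 CPM (SD, n = 4) in ASAH- Etoh-Dox mice, 129 ± 12.5 (n = 5) in ASAH+ Etoh-Dox mice and 152 ± 8.2 (n = 4) in ASAH+ Etoh mice. Btbd7 had 22.1 ± 1.5, 24.2 ± 2.3 and 28.2 ± 2.0 CPM in the same groups. Their longest transcripts had 11887 and 8157 bases, and those of Xiap, Miga1 and Gm44250 had 6834, 4965 and 4229 bases.

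Length was also examined beside the levels. The genes tested were divided by transcript length into 10 groups of like size. In ASAH+ mice on Etoh-Dox against Etoh, the median log2 fold change ran from 0.06 in the shortest group to -0.06 in the longest, which starts at 6519 bases and holds 8 of the 10 genes described here. Of the longest group, 7.12% were lower with Dox at an unadjusted p under 0.05, against 1.89% of the shortest. For ASAH+ against ASAH- mice on Etoh-Dox, the medians ran the other way, from -0.03 to 0.04. In ASAH- Etoh-Dox against ASAH+ Etoh mice they ran from 0.10 to -0.10. Within the longest group, 83 of 1432 genes had a lower log2 fold change than Kmt2c in ASAH+ mice on Etoh-Dox against Etoh.

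**Figure D4:**
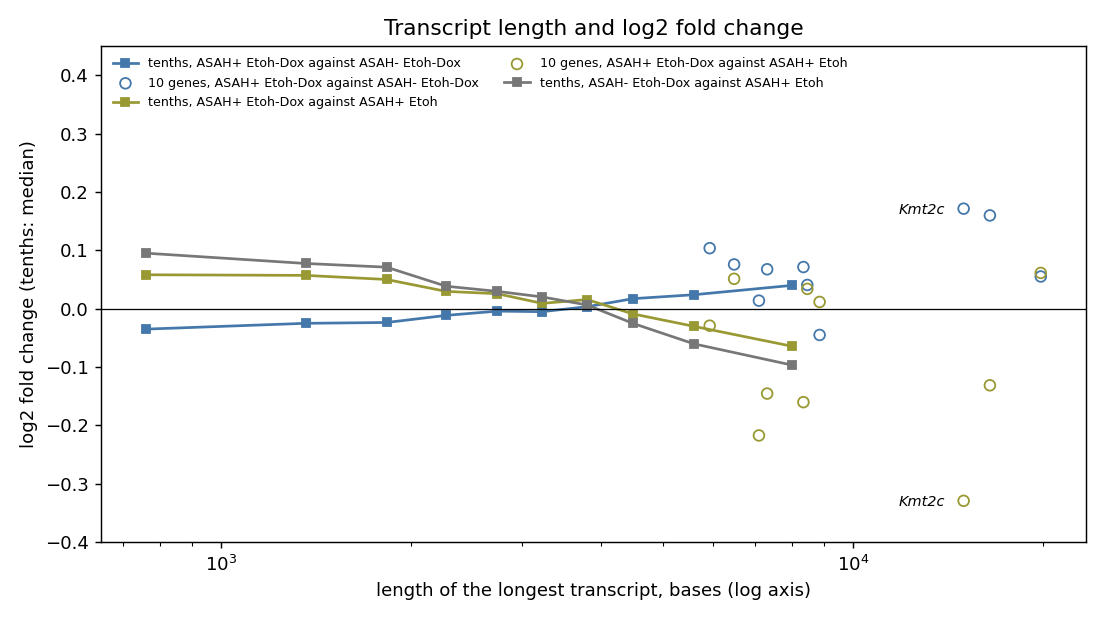
log2 fold change (vertical axis) against transcript length on a log axis, with squares for the median of each length group of all genes and circles for the 10 genes. The medians of the groups stay between -0.10 and 0.10, and Kmt2c lies at -0.33 for Etoh-Dox against Etoh in ASAH+ mice.

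A value for each mouse was taken as the median log2 deviation of the longest group of genes minus that of the shortest. It was -0.07, -0.27, -0.15 and 0.06 in ASAH- Etoh-Dox mice, -0.04, 0.05, -0.07, 0.005 and -0.07 in ASAH+ Etoh-Dox mice, and 0.08, 0.19, 0.05 and 0.07 in ASAH+ Etoh mice. All 4 mice without Dox were above 0, as were ASAH- Etoh-Dox replicate 4 and ASAH+ Etoh-Dox replicates 2 and 4. With an offset for transcript length fitted in each mouse, the log2 fold change of Kmt2c was -0.23 between the ASAH+ groups, 0.12 between the Etoh-Dox groups and -0.35 in the selecting comparison. Under this offset the mice of the selecting comparison did not overlap for 1 gene of the 10 in place of 2.

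**Figure D5:**
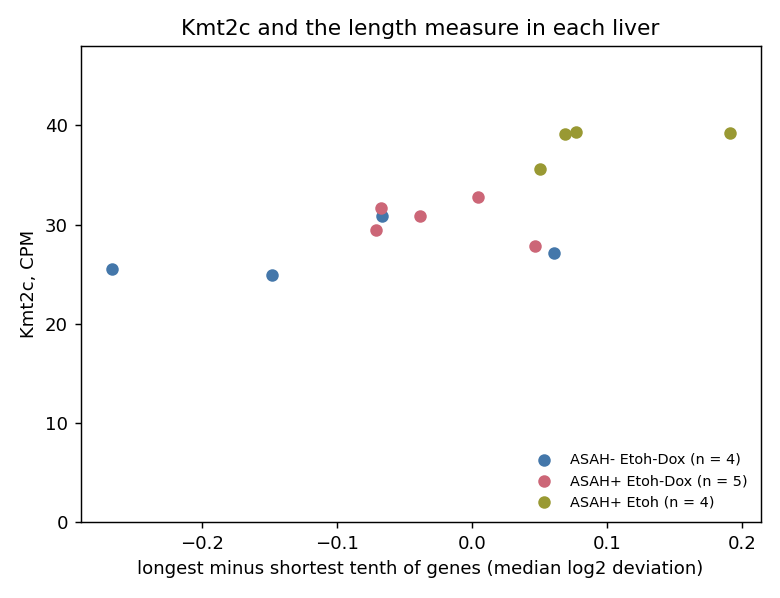
Kmt2c in CPM (vertical axis, from 0) against the length measure of each liver, the median log2 deviation of the longest minus the shortest length group of genes, for 13 mice by group. ASAH+ Etoh mice lie at 0.05 to 0.19 on the horizontal axis. ASAH- Etoh-Dox mice lie at -0.27 to 0.06 and ASAH+ Etoh-Dox mice at -0.07 to 0.05.

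Marker genes of other cells and mitochondrial messages were examined as well, and edgeR called 0 of them in either tested comparison. The summed level of 5 red cell genes, led by Hbb-bs, was 231, 752, 1714 and 215 CPM in ASAH- Etoh-Dox mice. It was 689, 241, 871, 355 and 646 CPM in ASAH+ Etoh-Dox mice and 135, 160, 175 and 192 CPM in ASAH+ Etoh mice, all below every Etoh-Dox mouse. All 5 were higher with Dox in ASAH+ mice at an unadjusted p under 0.05, as were 580 of all 14317 genes tested. Of 5 sinusoidal endothelial genes, led by Clec4g, 4 were lower with Dox in ASAH+ mice at that p. Between the Etoh-Dox groups, 3 of the 5 were lower in ASAH+ mice. Of all genes tested, 464 and 225 were lower at that p in these comparisons, respectively. Nothing is read from the marker counts. The summed level of the endothelial genes was 108 to 198 CPM in ASAH- Etoh-Dox mice, 95.1 to 130.04 CPM in ASAH+ Etoh-Dox mice and 120 to 161 CPM in ASAH+ Etoh mice. All genes encoded in mitochondria, messages and others, took 7.33 to 7.90% of counts in ASAH- Etoh-Dox mice, 6.83 to 7.60% in ASAH+ Etoh-Dox mice and 5.76 to 7.22% in ASAH+ Etoh mice. In whole liver, fewer cells of a type and less RNA per cell cannot be told apart. The part of these measures and of length in the level of Kmt2c was not tested.

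The summed level of 6 Kupffer cell and macrophage genes, led by Clec4f, averaged 341, 274 and 224 CPM in ASAH- Etoh-Dox, ASAH+ Etoh-Dox and ASAH+ Etoh mice. The ASAH- mice, at 251 to 517 CPM, lay above all ASAH+ Etoh mice, at 199.8 to 243 CPM. The summed level of 5 stellate genes, led by Dcn, averaged 246, 208 and 218 CPM in the same order, and the ASAH- mice, at 228 to 274 CPM, lay above all ASAH+ Etoh-Dox mice, at 177 to 227 CPM. The sums were below 10 CPM for 4 cholangiocyte genes, led by Sox9, and for 5 lymphocyte genes, led by Cd79a, and the groups overlapped. Of 4 genes of skeletal muscle or pancreas, Cela1 was most abundant, at 7.56 CPM. No marker was at 0 in all mice. The circadian genes varied widely within groups, with a log2 ratio of Dbp to Arntl from -1.56 to 6.24 among ASAH+ Etoh-Dox mice, -0.92 to 6.07 among ASAH- Etoh-Dox mice and 1.55 to 5.67 among ASAH+ Etoh mice. With this ratio as a covariate, the log2 fold change of Kmt2c between the ASAH+ groups was -0.35.

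The shared core is formed by 4 subunits. Wdr5 had 28.1 ± 2.1 CPM (SD, n = 4) in ASAH- Etoh-Dox, 30.0 ± 2.3 (n = 5) in ASAH+ Etoh-Dox and 30.5 ± 5.5 (n = 4) in ASAH+ Etoh mice. Rbbp5 had 20.2 ± 1.0, 21.7 ± 1.3 and 21.6 ± 2.1 CPM, Ash2l 15.2 ± 0.73, 16.2 ± 1.9 and 15.9 ± 1.6 CPM, and Dpy30 10.2 ± 1.1, 9.17 ± 0.99 and 9.18 ± 0.77 CPM in the same groups. Of these 4 subunits, 0 had an unadjusted p under 0.05 in either tested comparison. The log2 fold changes were -0.02 to 0.03 between the ASAH+ groups and -0.15 to 0.11 between the Etoh-Dox groups, each with an SE of 0.08 to 0.11. Of 11 genes listed as subunits particular to some of the complexes, again 0 had an unadjusted p under 0.05. The smallest p values among them belonged to Bod1l, with log2 fold changes of 0.15 ± 0.08 and -0.14 ± 0.08 (SE), and to Hcfc2 and Paxip1.

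The mark that the KMT2 enzymes set is removed by H3K4 demethylases. Of 6 genes tested from this list, the demethylases Kdm1a, Kdm1b, Kdm5a, Kdm5b and Kdm5c and the corepressor subunit Rcor1, 0 had an unadjusted p under 0.05 in either comparison. Kdm5a had a log2 fold change of -0.10 ± 0.07 (SE) between the ASAH+ groups and Kdm5c one of 0.12 ± 0.09 (SE) between the Etoh-Dox groups. Of 8 genes listed as other H3K36 methyltransferases and readers, 3 were lower with Dox in ASAH+ mice at an unadjusted p under 0.05. They were Ash1l, with -0.22 ± 0.07 (SE), Nsd1, with -0.21 ± 0.08 (SE), and Setd5, with -0.18 ± 0.07 (SE), and none passed the adjusted threshold of edgeR. Setd5 was named after its value was seen. Of all genes tested, 3.24% were lower with Dox in ASAH+ mice at an unadjusted p under 0.05, as were 7.12% of the longest length group. The lists were chosen with earlier results known, so nothing is read from such counts. The median of these 8 genes was -0.03. Between the Etoh-Dox groups, 0 of 8 reached that p, and Nsd2 came nearest, at 0.31 ± 0.15 (SE).

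Of 8 Polycomb subunits, which serve the methylation of lysine 27 that KDM6A removes, 2 were higher with Dox in ASAH+ mice at an unadjusted p under 0.05, Ezh1 at 0.24 ± 0.09 and Phf1 at 0.30 ± 0.14 (SE), and 0 of 8 between the Etoh-Dox groups. Of all 14317 genes tested, 580 were higher and 464 lower with Dox in ASAH+ mice at that p. Between the Etoh-Dox groups, 184 were higher and 225 lower in ASAH+ mice. The same totals apply to the counts of the other lists. A further list held acetyltransferases, large chromatin remodelers and subunits of both, and also the TET enzymes, which oxidize methylated cytosine in DNA. Of its 24 genes tested, Tet2 and Tet3 among them, 1 was lower with Dox, Chd1 at -0.38 ± 0.11 (SE). The median of the 24 was -0.06, and 19 had a negative log2 fold change, against 47% of all genes. Between the Etoh-Dox groups 2 of the 24 were higher in ASAH+ mice at that p, the TET enzyme gene Tet2 at 0.26 ± 0.10 and the remodeler gene Atrx at 0.19 ± 0.09 (SE). Of 20 long transcripts outside chromatin, 6 were lower with Dox at that p, against 3.24% of all genes and 7.12% of the longest length group. Of these 20, 19 had a negative log2 fold change, against 47% of all genes, and their median was -0.15. Apob, which encodes the protein of very low density lipoprotein, was at -0.28 ± 0.08 and Vps13c at -0.26 ± 0.08 (SE). None of the genes in these lists passed the adjusted threshold. The 20 long transcripts had a lower median than the 10 genes described here, which had -0.08 in the same comparison. All 1432 genes of the longest length group had a higher median, -0.06.

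Nuclear receptors that NCOA6 partners with were described from a list of 9. Pparg, which promotes lipid storage, was higher in ASAH+ Etoh-Dox mice at an unadjusted p under 0.05 in both comparisons. It had 11.9 ± 1.7 CPM (SD, n = 5) in this group, against 9.54 ± 1.1 CPM (n = 4) in ASAH- Etoh-Dox mice and 9.63 ± 1.1 CPM (n = 4) in ASAH+ Etoh mice. Its adjusted p by edgeR was 1.00 and 0.62, respectively. Ppara, the receptor of fatty acid oxidation, had a log2 fold change of -0.24 ± 0.14 (SE) between the ASAH+ groups. Of 11 tested targets of FXR and LXR, 1 was lower with Dox at an unadjusted p under 0.05, Mylip at -0.49 ± 0.19 (SE). Nr0b2, a repressor of bile acid synthesis, was at 0.89 ± 0.53 (SE) in the same comparison. Between the Etoh-Dox groups 0 of 11 reached that p, and Abcb11, the bile salt export pump, was at 0.31 ± 0.18 (SE).

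Over the whole table, edgeR called 2 genes in each comparison, and the number depended on the tool. DESeq2 called 12 genes for ASAH+ against ASAH- mice on Etoh-Dox, 98 for Etoh-Dox against Etoh in ASAH+ mice and 149 for ASAH- Etoh-Dox against ASAH+ Etoh mice when fitted on all 13 mice, and 11, 114 and 168 when fitted on the groups compared. The edgeR count for the ASAH+ groups was 2 to 8 with a mouse left out, and 8 without ASAH+ Etoh replicate 2. For the Etoh-Dox groups it was 1 to 2, and 1 without ASAH- Etoh-Dox replicate 1, 3 or 4. The genes called by edgeR were Asah1 and Sod1, an antioxidant enzyme, in both comparisons with ASAH+ Etoh-Dox mice, and in ASAH- Etoh-Dox against ASAH+ Etoh mice they were mt-Co2 and mt-Co3, subunits of cytochrome oxidase, which were higher in the ASAH- mice by 1.497 ± 0.22 and 0.74 ± 0.10 (SE, log2). The edgeR count in this comparison was 0 to 2 with a mouse left out, and it stayed at 2 only without ASAH- Etoh-Dox replicate 4. In ASAH+ mice on Etoh-Dox against Etoh, 5 of 13 mitochondrial messages were higher at an unadjusted p under 0.05, with mt-Co2 at 0.89 ± 0.21 (SE). In ASAH+ against ASAH- mice on Etoh-Dox, 3 of 13 were lower at that p, with mt-Co2 at -0.60 ± 0.20 and mt-Co3 at -0.32 ± 0.10 (SE). The nuclear RNA Malat1 was at 0.04 ± 0.16 (SE), and Meg3 at 1.26 ± 0.69 (SE) between the ASAH+ groups. Of the 4 nuclear RNAs, 0 reached that p in either comparison.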

How the data were processed

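Livers of 13 mice were assayed by RNaseq with stranded, poly(A)-selected libraries. The authors obtained estimated counts with salmon on GENCODE M19 transcripts, summed them by gene with tximport and deposited them as whole numbers without scaling. Names, positions and lengths came from GENCODE M21 (53355 of 53392 identifiers found). In R 4.3.3, edgeR 4.0.16 (filterByExpr, TMM, robust quasi-likelihood, 3 group means over 13 mice) tested 14317 genes. P values were adjusted by Benjamini-Hochberg over all of them, with 0.1 as threshold. Each SE was derived from the fold change and its F statistic. The 95% interval used this SE with 10 degrees of freedom, not those of the edgeR test. Log2 CPM used a prior count of 2. The exact permutation test compared mean log2 CPM. The genes described and all lists were chosen with earlier results of these data known. Named genes were the 10 genes, Asah1, the core subunits, up to 2 genes per list with the smallest p per tested comparison, every called gene, the 5 most like Kmt2c and the leading gene of each marker list. Replicates were different libraries (chi-square 17.3 to 95.4 times its degrees of freedom over 22 pairs). Alternatives used DESeq2 1.42.0, limma 3.58.1, other filters, scalings and covariates, and each mouse left out.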

Additional observations from a re-analysis of the deposited data

Results flagged for a closer look

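ASAH+ Etoh replicate 3 stood apart from the other 3 mice of its group for Kmt2c. It had 35.6 CPM, the next mouse had 39.1 CPM, and this gap made up 0.929 of the range of the group. Over 51 groups of values examined, this was the only such case, and chance flags about 1 in 20 groups. A single case is no more than this rate would give. The mouse was still above all 9 Etoh-Dox mice.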

How the results depend on the processing

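The log2 fold change of Kmt2c kept its direction in all 3 comparisons under every alternative run and with each mouse left out. In the selecting comparison this direction was set by the selection, and the other comparisons share mice with it. Nothing is therefore read from the kept direction. Between the ASAH+ groups Kmt2c passed the threshold in 1 alternative, DESeq2 on the 2 groups compared, from mice that in part selected it. Its log2 fold change there was -0.34, with an adjusted p of 0.0209 by DESeq2. The adjusted p ranged from 0.0209 to 0.692 over the alternatives that gave one, and from 0.380 to 0.862 with a mouse left out. DESeq2 on all 13 mice gave no adjusted p for any of the 10 genes in this comparison, because its filter on mean counts left them out. With a mouse left out, its log2 fold change ranged from -0.37 to -0.30 between the ASAH+ groups and from 0.13 to 0.25 between the Etoh-Dox groups.

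For ASAH+ against ASAH- mice on Etoh-Dox, the number of genes called was 2 as reported, 12 with DESeq2 on all 13 mice, 11 with DESeq2 on the 2 groups compared, 1 with edgeR on the 2 groups compared and 1 with the replicate block. With a mouse left out it was 1 to 2, and 1 without ASAH- Etoh-Dox replicate 1, 3 or 4. For Etoh-Dox against Etoh in ASAH+ mice, it was 2 as reported, 98 and 114 with DESeq2 on all mice and on the 2 groups, and 4 with no count filter. With a mouse left out it was 2 to 8, and 8 without ASAH+ Etoh replicate 2. For ASAH- Etoh-Dox against ASAH+ Etoh mice, it was 2 as reported, 149 and 168 with DESeq2 on all mice and on the 2 groups, and 1 with the circadian covariate (log2 Dbp over Arntl). It was 0 with edgeR on the 2 groups, the replicate block, the length offset and a threshold of 0.05, and 0 to 2 with a mouse left out, and 2 only without ASAH- Etoh-Dox replicate 4. The cause was not tested.

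Of the 10 genes, 1 was called between the ASAH+ groups by DESeq2 on the 2 groups compared, and 0 in the other alternatives, among which DESeq2 on all 13 mice could not call any there. At an unadjusted p under 0.05, the count between the Etoh-Dox groups was 1 as reported and 0 with DESeq2 or edgeR on the 2 groups, no count filter, the replicate block and the length offset. With a mouse left out it was 0 to 1, and 0 without any of 9 mice: ASAH- Etoh-Dox replicates 2, 3 and 4, ASAH+ Etoh-Dox replicates 1, 4 and 5, and ASAH+ Etoh replicates 1, 2 and 4. Between the ASAH+ groups it was 2 as reported and 1 with DESeq2 or edgeR on the 2 groups, library totals without TMM, no count filter, the length offset and the covariate. It was 3 with DESeq2 on all 13 mice, with DESeq2 size factors and with Asah1 left out of the library totals. With a mouse left out it was 1 to 3, and 1 without ASAH+ Etoh-Dox replicate 3 or 4 or ASAH+ Etoh replicate 2. The mice did not overlap between ASAH- Etoh-Dox and ASAH+ Etoh for 2 genes as reported, 1 with the length offset and 2 to 4 with a mouse left out, with 4 without ASAH+ Etoh replicate 3. The cause was not tested.

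Small log2 fold changes changed sign. Between the ASAH+ groups, Setd1b was at -0.000378 with DESeq2 on all 13 mice, -0.000386 with DESeq2 size factors and -0.0211 with limma-voom. Kdm6a was at 0.0103 with library totals and 4.79e-05 with the length offset. Between the Etoh-Dox groups with the length offset, Kmt2b was at -0.00103, Kmt2d at -0.00913 and Ncoa6 at -0.0236. In ASAH- Etoh-Dox against ASAH+ Etoh mice, Kmt2b was at 0.0931 and Setd1a at 0.0375 with the length offset, and 6 of the 10 genes were negative in place of 8. Other values moved without a change of sign. Between the ASAH+ groups with the length offset, Kmt2a was at -0.0186 in place of -0.13 and Setd2 at -0.104 in place of -0.16. Kmt2d was at 0.186 there in place of 0.06.

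The replicate block used the number in the titles. Deviations of mice with the same number correlated at -0.26 to 0.19 across genes, so the samples share a number and no pairing was used. With the replicate block, the log2 fold changes between the Etoh-Dox groups were -0.0249 for Kmt2b, -0.0211 for Kmt2d, -0.0388 for Setd1a and -0.0179 for Ncoa6. Between the ASAH+ groups they were -0.0338 for Kmt2b, -0.0119 for Kmt2d, -0.0562 for Setd1a and -0.123 for Setd1b. For Kmt2c they were 0.16 and -0.34.

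With a mouse left out, the log2 fold changes between the Etoh-Dox groups ranged from -0.0160 to 0.0865 for Kmt2b, -0.0130 to 0.145 for Kmt2d, -0.000369 to 0.113 for Kmt2e, -0.0158 to 0.185 for Setd1a, -0.169 to 0.0541 for Setd1b and -0.0548 to 0.0632 for Ncoa6. Between the ASAH+ groups they ranged from -0.226 to 0.0128 for Kmt2a, -0.0386 to 0.0719 for Kmt2b, -0.0218 to 0.179 for Kmt2d, -0.0567 to 0.144 for Setd1a, -0.128 to 0.0948 for Setd1b and -0.0781 to 0.00737 for Kdm6a. Kmt2a was above 0 only without ASAH+ Etoh replicate 4. The cause was not tested.

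With 4 or 5 mice per group, differences of the size seen for most of the 10 genes were within the spread of the mice. The ASAH+ groups differ in Dox and in transgene induction at once, which cannot be told apart there. No group without the transgene went without Dox, and litters are not given.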
